A study of Mus musculus with 21 samples.

Results

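The comparison described here is that of 3 lungs from mice given vitamin E acetate at 3.12 with 3 lungs from mice given 10% ethanol, read gene by gene across the whole transcriptome. Its 6 libraries were chosen by their labels, out of 21 in the series. The first group, called VEA 3.12 below, is animals 56, 57 and 59, and the second is animals 12, 13 and 14. All were C57BL/6 mice dosed once a day with 50 µL by the trachea over 14 days, and their lungs were collected on day 15, once bronchoalveolar lavage had been done. The sample labels give the dose in mg/kg and the series description gives the same number in mg/mL, so only the number is used. The labels call 10% ethanol the control for vitamin E acetate but do not say what the acetate was dissolved in, so each difference below is a difference from animals given 10% ethanol. Age and sex are not given in the sources used here. Other groups of 3 animals, given vitamin E acetate at 6.25 or 12.5 or saline, are brought in where they bear on a result. Libraries from animals given propylene glycol enter only through the fit of all 21 libraries, with its filter, scaling and shared spread.

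Vitamin E acetate is the acetate ester of alpha-tocopherol, an oily liquid found in some cannabis vaping products. In the airspaces, oil and spent surfactant are taken up by alveolar macrophages, which break lipids and proteins down in their lysosomes and can turn into swollen, lipid-filled cells. Macrophages and epithelium under stress release chemokines, small secreted proteins that draw neutrophils and monocytes from the blood, many of them through the transcription factor NF-kB. The airway lining is made of club cells, which secrete protective proteins and carry much of the lung's drug-metabolising machinery, and of ciliated cells, whose beating clears mucus.

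Each library held 9133120 to 10439567 counts, and 15157 to 15882 genes had at least 1 count. Levels are CPM, counts scaled to a common library size and by TMM, a correction for library composition, and 5 CPM stood for 45.3 to 52.6 counts. Reads come from the 3′ end of transcripts, so levels were compared between animals for 1 gene and not between genes. Markers of lung were present in all 6 libraries: the surfactant gene Sftpc at 14190 to 18690 CPM, the type I cell gene Ager at 2361 to 2994 CPM, the endothelial gene Cdh5 at 124 to 199 CPM and the ciliated cell gene Foxj1 at 28.1 to 56.5 CPM. Ribosomal Rn45s took 19.2% to 25.4% of counts after VEA 3.12 and 18.5% to 21.3% after ethanol, and haemoglobin transcripts took 5.85% to 7.85% after VEA 3.12 and 8.49% to 10.5% after ethanol. Animals within a group differed by more than counting error (chi-square per degree of freedom 8.82 to 21.3 after VEA 3.12 and 13.2 to 16.6 after ethanol), so the tests rest on the spread between animals. Intervals on low counts reflect counting error alone.

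Genes of chemokines, acute phase proteins and lysosomal enzymes were among the rises after VEA 3.12, and secretory and drug-metabolising genes among the falls. The RNA is from whole lung, so the cells behind a change were not measured. Of 14727 genes tested with edgeR's quasi-likelihood test, 812 passed a Benjamini-Hochberg adjusted p of 0.05, which is 5.51% of those tested. Of these, 504 were higher after VEA 3.12 (3.42% of genes tested) and 308 were lower (2.09%). The counts of list members called below are to be read beside these shares. The lists were written with earlier results of these data known, so a share above these is a description and not a test. The higher genes moved further: their median log2 fold change was 1.03, against -0.73 for the lower ones and -0.01 for all genes tested. Changes of at least 2 on the log2 scale were seen in 89 higher and 15 lower genes. The VEA and ethanol animals had separate CPM ranges for 795 of the 812, where 24.7% of all genes tested did not overlap. The count fell on leaving out each animal in turn, which leaves fewer samples. It was 434, 621 and 471 without VEA animal 56, 57 or 59, and 536, 449 and 574 without ethanol animal 12, 13 or 14.

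**Figure D1:**
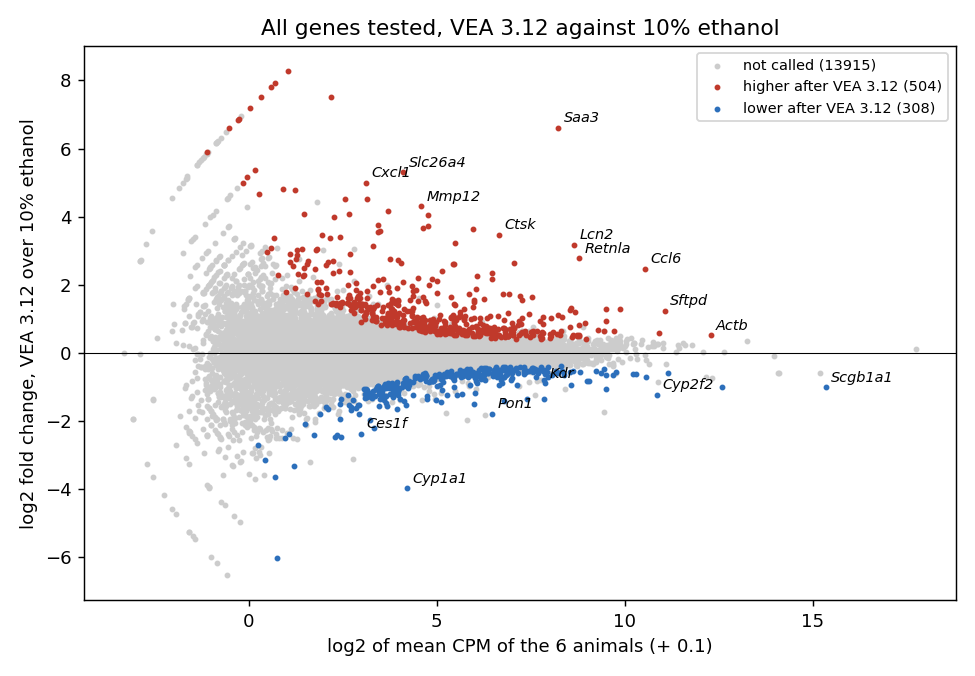
Each point is 1 of the 14727 genes tested; the horizontal axis is the log2 of its mean CPM over the 6 animals plus 0.1, and the vertical axis its log2 fold change, VEA 3.12 over 10% ethanol. Red points are the 504 genes that passed as higher and blue points the 308 that passed as lower; the red points reach further from 0 than the blue ones.

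Ccl6, a chemokine of macrophages and myeloid cells, lies at chr11:83587886-83593087 (gene positions are those of RefSeq on GRCm38.p6, the patch release of mm10). Its level was 2405, 2366 and 2803 CPM in VEA animals 56, 57 and 59, against 357, 524 and 488 CPM in ethanol animals 12, 13 and 14, and values below keep that order of animals. No VEA animal came near the ethanol range (log2 fold change 2.47 ± 0.19, edgeR adjusted p = 1.42e-10). Sftpd (chr14:41172212-41185198), a collectin of surfactant that binds microbes and lipid, was at 3527, 2594 and 2891 CPM after VEA 3.12 and at 1283, 1283 and 1251 CPM after ethanol (1.24 ± 0.15). Scgb1a1 (chr19:9083642-9087956), the main secreted protein of club cells, fell, with 27730, 29770 and 25680 CPM after VEA 3.12 and 62350, 59610 and 45260 CPM after ethanol (log2 fold change -1.01 ± 0.15, edgeR adjusted p = 2.96e-05). The lowest ethanol animal lay well above the highest VEA animal. Chil1, a chitinase-like protein of macrophages and epithelium, rose by 1.30 ± 0.21, and Inmt, an N-methyltransferase abundant in lung, fell by 0.70 ± 0.14 on the log2 scale.

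**Figure D2:**
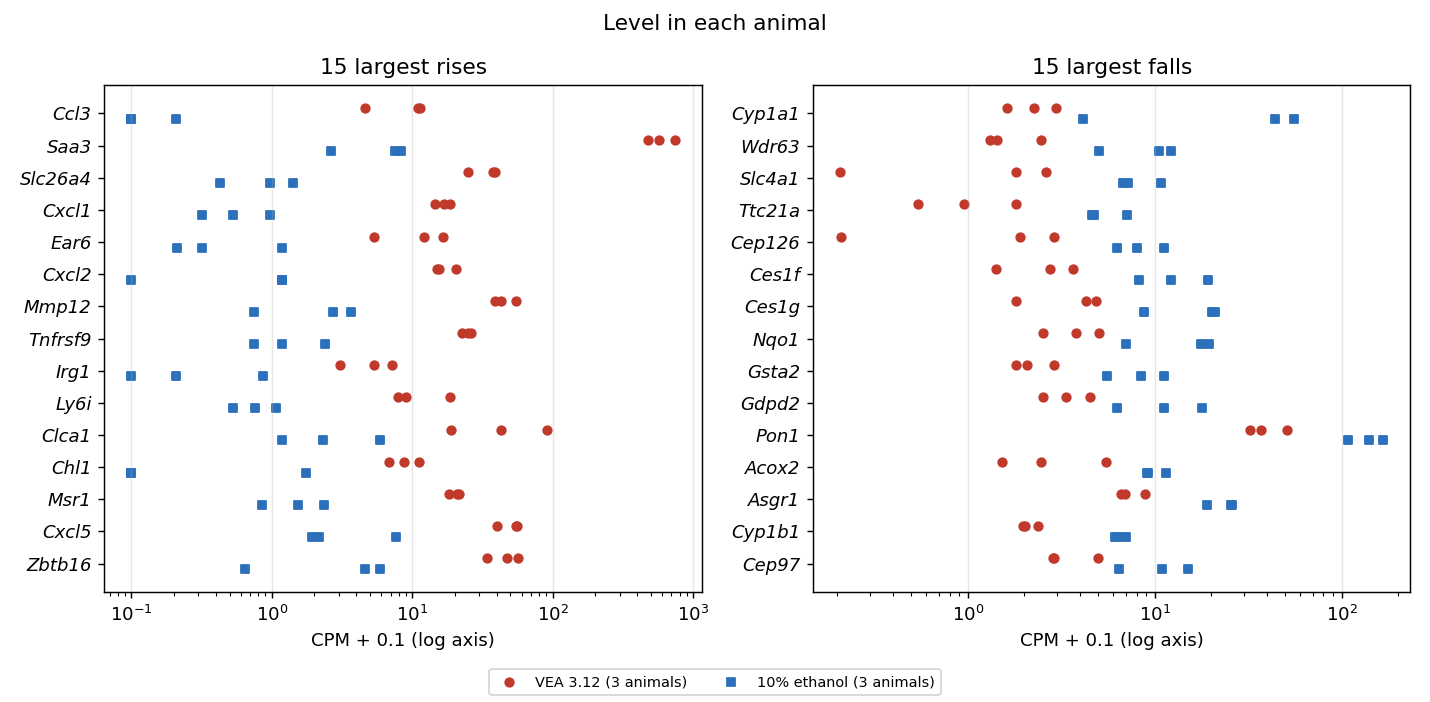
Level of the 15 genes with the largest log2 rises (left) and falls (right) in each animal, as CPM plus 0.1 on a log axis; red circles are VEA 3.12 animals, blue squares 10% ethanol animals. The genes were taken from called genes with a group mean of at least 5 CPM and groups that do not overlap. Lack of overlap was thus a condition for being shown. In several falls, such as Cyp1a1, 1 ethanol animal lies close to the VEA animals.

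Neutrophil chemokines were among the steepest rises. Of 8 tested members of a list of neutrophil chemokines, their growth factor and receptors, 4 were higher and none lower (50% of those tested, median log2 fold change 2.27), and the same count was found on leaving out each animal in turn. Cxcl1 and Cxcl2 encode neighbouring chemokines that act on the neutrophil receptor CXCR2. Cxcl1 was at 18.4, 14.5 and 16.6 CPM after VEA 3.12, against 0.220, 0.432 and 0.863 CPM after ethanol. For Cxcl2 the levels were 15.4, 20.3 and 14.9 CPM after VEA 3.12 and 0, 1.08 and 1.08 CPM after ethanol. In both genes each VEA animal lay many times above the ethanol animals, none of which was above 1.1 CPM (Cxcl1 4.99 ± 0.49, Cxcl2 4.52 ± 0.98). Cxcl5, a related chemokine of lung epithelium, was at 54.4, 40.3 and 55.6 CPM after VEA 3.12 and 7.57, 2.05 and 1.83 CPM after ethanol (3.71 ± 0.55), with ethanol animal 12 above the other two. Cxcr1, a receptor for such chemokines, had 98 counts over the 3 VEA libraries and 3 over the 3 ethanol libraries, a ratio of 31.3 (95% counting interval 10.4 to 154.2). The other receptor, Cxcr2, overlapped between groups at 2.95, 11.4 and 8.71 CPM after VEA 3.12 and 3.18, 4.43 and 5.61 CPM after ethanol, and did not pass.

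The promoters of Cxcl1 and Cxcl2 are shown because both genes rose and both hold a match to the NF-kB consensus close to the start. Such matches were no more common in higher genes, with 8.89% of their promoters, than in genes tested, with 8.93%. The 250 bases before the RefSeq start on GRCm38.p6 are given 5′ to 3′ with motif matches in capitals. Tnfrsf9, a TNF receptor family member described below, holds a match to NF-kB and one to AP-1 in its second listed promoter.
Cxcl1 promoter (chr5:90890995-90891244, plus strand): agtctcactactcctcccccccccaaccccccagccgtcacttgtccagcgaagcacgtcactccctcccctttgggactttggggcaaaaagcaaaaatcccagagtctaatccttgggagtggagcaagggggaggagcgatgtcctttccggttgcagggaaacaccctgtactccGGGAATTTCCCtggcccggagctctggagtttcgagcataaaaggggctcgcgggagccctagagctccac
Cxcl2 promoter (chr5:90903649-90903898, plus strand): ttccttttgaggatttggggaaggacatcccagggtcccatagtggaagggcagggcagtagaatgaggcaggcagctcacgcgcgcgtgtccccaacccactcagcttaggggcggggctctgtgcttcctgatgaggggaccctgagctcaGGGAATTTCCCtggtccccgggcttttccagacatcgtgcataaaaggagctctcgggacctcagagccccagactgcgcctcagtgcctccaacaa
Tnfrsf9 promoter (chr4:150927749-150927998, plus strand): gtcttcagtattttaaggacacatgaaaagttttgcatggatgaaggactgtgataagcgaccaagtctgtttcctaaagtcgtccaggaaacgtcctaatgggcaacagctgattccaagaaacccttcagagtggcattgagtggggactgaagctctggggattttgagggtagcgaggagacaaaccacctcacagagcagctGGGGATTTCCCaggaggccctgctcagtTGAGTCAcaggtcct
In Cxcl1 the matches span 71 to 61 bases before the start, and in Cxcl2 97 to 87, each a pair of overlapping matches. In Tnfrsf9 the NF-kB matches span 43 to 33 and the AP-1 match 15 to 9 bases before the start. No NF-kB or AP-1 match lies in the same window of Saa3, Ccl3, Lcn2 or Slc26a4, which says only that these letters are not there.

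Most markers of neutrophils themselves did not pass. Of 9 tested markers 1 was higher, the collagenase Mmp8, with 24.1, 30.9 and 29.9 CPM after VEA 3.12 and 4.61, 4.64 and 4.42 CPM after ethanol (2.63 ± 0.32), and the median of the list was -0.06. With no filter on low counts 3 were higher and 3 lower. The calprotectin genes, abundant in neutrophils, did not pass: S100a8 was at 205, 205 and 308 CPM after VEA 3.12 and 116, 203 and 102 CPM after ethanol, and S100a9 at 190.2, 200.1 and 253 CPM after VEA 3.12 and 96.4, 217 and 103 CPM after ethanol. Summed over the list, levels were 628.5 to 787.9 CPM after VEA 3.12 and 447.1 to 691.9 CPM after ethanol, ranges that overlap. The granule genes Mpo, Elane, Ngp and Camp had too few counts to be tested. The lungs had been lavaged before RNA was taken, and cells removed by lavage were not measured.

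Chemokines of monocytes, T cells and dendritic cells rose as well. Of 17 tested CC chemokines and CXCR3 ligands, 8 were higher and none lower (47.1%, median 2.40), and the count stayed between 7 and 9 without any 1 animal. Ccl17, a ligand of CCR4 on T helper cells, was at 81.8, 60.8 and 83.8 CPM after VEA 3.12 and 11.3, 14.7 and 11.3 CPM after ethanol (2.60 ± 0.22, edgeR adjusted p = 1.42e-10). Ccl9, a myeloid cell attractant, was at 43.8, 60.5 and 72.2 CPM after VEA 3.12, against 11.1, 13.9 and 8.31 CPM after ethanol (2.40 ± 0.24). The groups were widely separated in both. Ccl22, the other CCR4 ligand, rose by 2.59 ± 0.43, and the monocyte attractant Ccl7 by 3.46 ± 0.59. Ccl2, the best known monocyte attractant, was at 7.90, 13.9 and 15.2 CPM after VEA 3.12 and 2.31, 0.756 and 1.40 CPM after ethanol but did not pass (edgeR adjusted p = 0.059). The interferon-induced Cxcl9 and Cxcl10 did not pass either, at 4.76 ± 0.996 and 1.03 ± 0.335 CPM after VEA 3.12 and 2.83 ± 1.14 and 0.987 ± 1.53 CPM after ethanol (SD, n = 3 each). None of 18 interferon-stimulated genes passed with edgeR, DESeq2 or limma-voom, and 2 had an unadjusted p under 0.05.

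Among cytokines 3 of 12 tested members were higher, Il1rn, Il18 and Tnf, and none lower (25%, against the 3.42% of all genes that were higher). Il1rn, which encodes the interleukin 1 receptor antagonist, was at 23.7, 30.6 and 33.4 CPM after VEA 3.12 and 8.01, 9.72 and 12.2 CPM after ethanol (1.55 ± 0.28). Il1b was higher in every VEA animal than in any ethanol animal, 22.6, 26.9 and 34.5 CPM after VEA 3.12 and 11.3, 19.9 and 9.93 CPM after ethanol, but did not pass (edgeR adjusted p = 0.157). Tnf was called on very few reads, 58 counts over the VEA libraries and 1 over the ethanol libraries (ratio 55.5, interval 9.58 to 2230). Its call was lost without VEA animal 59, ethanol animal 12 or ethanol animal 13 (edgeR adjusted p = 0.0514, 0.0741 and 0.0772, within a range over alternatives of 0.000965 to 0.356), and the list count was then 1, since Il18 lost its call as well. Tnf also did not pass with limma-voom (adjusted p = 0.167) or with saline in place of ethanol (edgeR adjusted p = 0.356). Il18 did not pass with either (limma-voom adjusted p = 0.0512, edgeR adjusted p = 0.323) or without VEA animal 57 (edgeR adjusted p = 0.125). Interleukin 6, interferon gamma and the type 2 cytokines Il4, Il5 and Il13 had too few counts to be tested.

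In the list of NF-kB feedback and target genes 5 of 21 were higher, Tnfrsf9, Cd83, Tnfaip2, Relb and Zc3h12a, and none lower (23.8%, against 3.42% of all genes). Tnfrsf9, also called 4-1BB, a costimulatory receptor, was at 22.6, 24.7 and 26.0 CPM after VEA 3.12, against 2.31, 1.08 and 0.647 CPM after ethanol, with little spread among the VEA animals (4.17 ± 0.35, edgeR adjusted p = 1.42e-10). The dendritic cell surface protein Cd83 rose by 1.45 ± 0.29, and Tnfaip2 by 0.75 ± 0.18. The feedback inhibitors Nfkbia and Tnfaip3 did not pass, at 607 ± 101 and 6.09 ± 1.13 CPM after VEA 3.12 and 642 ± 40.9 and 7.13 ± 1.33 CPM after ethanol. Without VEA animal 56 or ethanol animal 13, Relb and Zc3h12a did not pass and the list count was 3, and it was 9 with no filter on low counts and 10 with saline in place of ethanol. Relb also lost its call without ethanol animal 14, and Zc3h12a without VEA animal 57, VEA animal 59 or ethanol animal 12 and with only the groups compared (edgeR adjusted p over the alternatives 0.00036 to 0.125 for Relb and 0.00853 to 0.223 for Zc3h12a).

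Of 14 tested acute phase genes 3 were higher and none lower, a count that held without any 1 animal and was 5 with saline in place of ethanol, with no filter on low counts or with only the groups compared. Saa3 (chr7:46711998-46719615), a serum amyloid A made in tissues by macrophages and epithelium, was at 476, 575 and 739 CPM after VEA 3.12, against 2.52, 8.21 and 7.44 CPM after ethanol (6.62 ± 0.73). Lcn2, lipocalin, which withholds iron from bacteria, was at 791, 708 and 688 CPM after VEA 3.12 and 69.9, 102 and 69.0 CPM after ethanol (3.18 ± 0.45, edgeR adjusted p = 0.000717). The lowest VEA animal lay far above the highest ethanol animal in both. Itih4, an inter-alpha-trypsin inhibitor chain, rose by 1.77 ± 0.32. Saa1, the hepatic relative of Saa3, stayed under 3 CPM in all 6 animals and did not pass.

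Complement genes rose in 5 of 16, the chains of C1q, C3 and C3ar1, and none fell (31.2%, against 3.42% of all genes). The 3 chains of C1q, the recognition molecule of the classical pathway and a product of tissue macrophages, moved together: C1qa by 1.28 ± 0.17, C1qb by 1.54 ± 0.25 and C1qc by 0.96 ± 0.20. C1qb was at 100.2, 78.8 and 107 CPM after VEA 3.12 and 31.8, 32.3 and 33.8 CPM after ethanol, with a tight ethanol group. C3ar1, the receptor for the C3a fragment, rose by 1.59 ± 0.31. C3, the central component, was at 316, 316 and 288 CPM after VEA 3.12 and 159, 232 and 237 CPM after ethanol (0.55 ± 0.15). Its call was lost without VEA animal 56, VEA animal 57 or ethanol animal 12 (edgeR adjusted p = 0.0828, 0.0697 and 0.194, within a range over alternatives of 0.000142 to 0.194).

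Macrophage genes rose in large numbers. In the list of lipid-laden macrophages, genes of macrophages that have taken up lipid, 12 of 18 tested members were higher and none lower (66.7%, median 0.92), against the 3.42% of all genes that were higher. Ctsk (chr3:95499210-95509387), a collagen-degrading lysosomal protease, was at 172, 173 and 213 CPM after VEA 3.12, against 22.7, 11.7 and 15.9 CPM after ethanol (3.48 ± 0.39, edgeR adjusted p = 6.6e-05). Gpnmb (chr6:49036518-49058182), a membrane glycoprotein of lysosome-stressed macrophages, was at 72.6, 67.1 and 103 CPM after VEA 3.12, against 10.5, 6.59 and 8.63 CPM after ethanol (3.24 ± 0.48). The scavenger receptor Msr1, which takes up modified lipoproteins, was at 21.4, 18.1 and 20.7 CPM after VEA 3.12 and 1.43, 2.27 and 0.755 CPM after ethanol (3.75 ± 0.55). None of these groups came near each other. Broader macrophage genes moved less, with Cd68 up by 1.49 ± 0.22 and the galectin Lgals3 by 1.26 ± 0.15. The lipoprotein Apoe and the fatty acid receptor Cd36 did not pass, at 509 ± 84.8 and 436 ± 57.8 CPM after VEA 3.12 and 529 ± 70.7 and 538 ± 3.08 CPM after ethanol. Without any 1 animal the count was 8 or 9. In whole lung RNA, more cells of a type and more RNA per cell cannot be told apart, and neither can fewer cells and less RNA per cell.

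Of 15 tested genes of resident alveolar macrophages 5 were higher, the fifth being the integrin Itgax, and 1 lower. As with neutrophils, any of these cells removed by the lavage were not measured. Itgax lost its call without VEA animal 56, 57 or 59 or ethanol animal 13 or 14 (edgeR adjusted p of 0.0502 to 0.251, within a range over alternatives of 0.00916 to 0.251), and the count of higher genes was then 4. Marco (chr1:120474538-120505024), a scavenger receptor for particles and bacteria, was at 184, 136 and 122 CPM after VEA 3.12, against 18.8, 31.4 and 36.2 CPM after ethanol (2.36 ± 0.39). Atp6v0d2, a proton pump subunit of macrophages, was at 177, 152 and 168 CPM after VEA 3.12 and 48.5, 48.3 and 53.3 CPM after ethanol (1.73 ± 0.22). Both groups were clear of each other in each gene, and Plet1 (1.02 ± 0.14) and Chil3 (0.95 ± 0.16) also rose. Cidec, a lipid droplet protein of macrophages and fat cells, fell to 16.4, 21.2 and 14.8 CPM after VEA 3.12, against 38.4, 36.1 and 62.6 CPM after ethanol (-1.39 ± 0.26). It is also on the adipocyte list, whose summed levels were 174.6 to 437.0 CPM after VEA 3.12 and 427.4 to 848.4 CPM after ethanol and, like those of Cidec, were highest in ethanol animal 14, and the part of fat in its fall was not tested. Siglecf, a surface marker of these cells, was at 10.9, 7.09 and 6.51 CPM after VEA 3.12 and 12.8, 12.8 and 13.3 CPM after ethanol and did not pass (edgeR adjusted p = 0.223). The nuclear receptor Pparg, which maintains alveolar macrophages, overlapped between groups at 20.2 ± 5.83 CPM after VEA 3.12 and 22.6 ± 3.29 CPM after ethanol.

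Of 15 genes of recruited monocytes and macrophages 6 were higher and none lower. Ccr2, the receptor that brings monocytes out of the bone marrow, was at 69.5, 58.5 and 81.8 CPM after VEA 3.12 and 31.3, 41.2 and 32.3 CPM after ethanol (1.00 ± 0.17). Ms4a7, a marker of monocyte-derived macrophages, was at 10.5, 9.57 and 15.7 CPM after VEA 3.12 and 4.50, 4.10 and 1.83 CPM after ethanol (1.77 ± 0.34), and the endotoxin coreceptor Cd14 rose by 0.95 ± 0.20. The 2 C1q genes on this list are those given above. Irg1, which makes the antibacterial metabolite itaconate, was at 2.95, 5.27 and 7.06 CPM after VEA 3.12 and 0.768, 0.108 and 0 CPM after ethanol (4.07 ± 0.83). It did not pass with limma-voom (adjusted p = 0.108, within a range over alternatives of 4.07e-07 to 0.108).

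Lysosomal genes rose in 7 of 20 and none fell (35%, median 0.64), and the count was 5 to 7 without any 1 animal and 12 with no filter on low counts. Ctsd, the main aspartic protease of lysosomes, was at 1105, 863 and 1122 CPM after VEA 3.12, against 429, 447 and 402 CPM after ethanol (1.27 ± 0.21, edgeR adjusted p = 0.000414). Ctsz, a carboxypeptidase, rose by 0.88 ± 0.16, and Hexa, a subunit of the enzyme that breaks down gangliosides, by 0.78 ± 0.17. In all 3 the VEA animals lay above every ethanol animal. The promoter of Ctsd is shown because it holds the CLEAR core TCACGTG, the letters bound by TFEB and related factors that drive lysosomal genes, which includes the general E-box. Capitals mark the matches, at 245 to 239 and, overlapping on both strands, at 99 to 92 bases before the start.
Ctsd promoter (chr7:142387828-142388077, minus strand): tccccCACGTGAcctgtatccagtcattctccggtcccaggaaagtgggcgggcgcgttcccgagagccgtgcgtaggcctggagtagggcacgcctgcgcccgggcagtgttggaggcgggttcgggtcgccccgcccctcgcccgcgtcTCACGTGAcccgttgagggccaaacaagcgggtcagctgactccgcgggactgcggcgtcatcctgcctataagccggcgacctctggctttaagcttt
No CLEAR core lies in the same window of Ctsk or Gpnmb. The core was in 5.78% of promoters of higher genes, 5.81% of those of lower genes and 4.58% of those of genes tested.

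**Figure D3:**
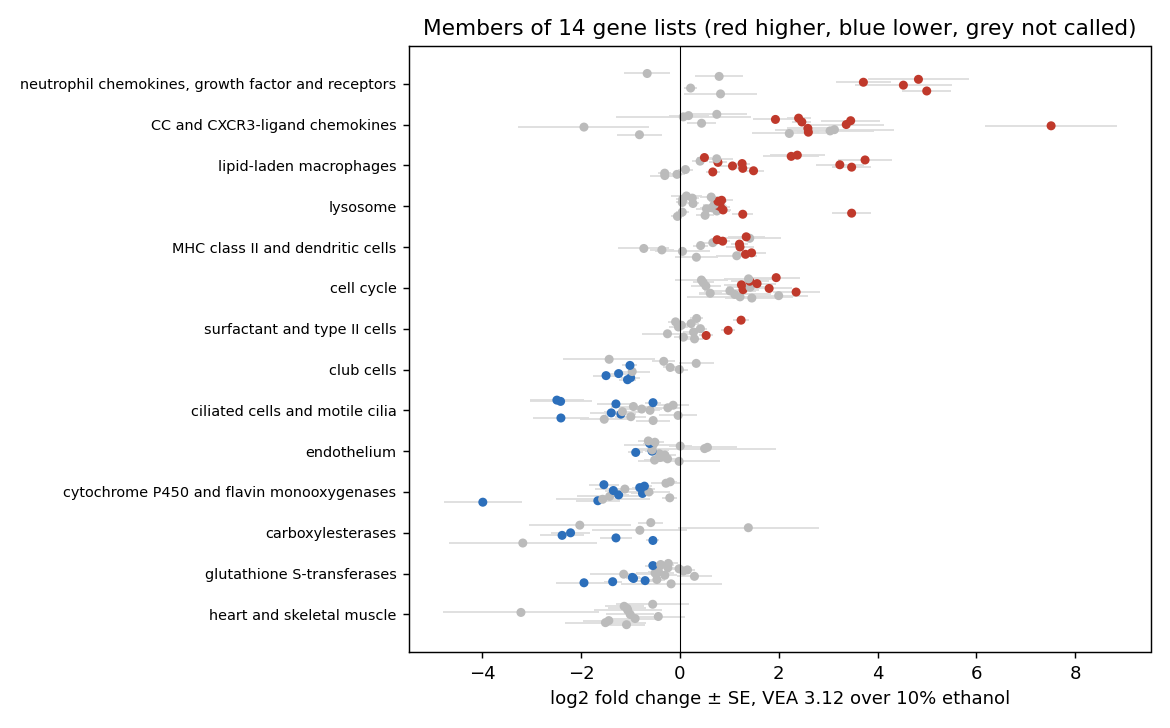
Log2 fold change, VEA 3.12 over 10% ethanol, of every tested member of 14 gene lists, with bars of 1 SE; red points passed as higher, blue as lower and grey did not pass. Chemokine, macrophage and cell cycle lists lie mostly to the right of 0, and club cell, ciliated cell and drug metabolism lists to the left.

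In a list of antigen presentation (MHC class II) and dendritic cell genes 7 of 15 rose and none fell (46.7%, median 0.87). The count was 5 to 7 without any 1 animal. The 7 include Cd83, which is also on the NF-kB list, and Fscn1. Fscn1 lost its call without VEA animal 56 or ethanol animal 12 (edgeR adjusted p = 0.0945 and 0.0527, within a range over alternatives of 4.27e-05 to 0.0945). The invariant chain Cd74 was at 624, 519.7 and 487 CPM after VEA 3.12, against 238, 200.4 and 210.5 CPM after ethanol (1.33 ± 0.16, edgeR adjusted p = 8.18e-07). H2-Ab1, a class II chain, was at 602, 546 and 566 CPM after VEA 3.12, against 236, 264 and 243 CPM after ethanol (1.21 ± 0.17). The ethanol animals were again closely grouped. H2-Eb1 rose by 0.75 ± 0.15 and H2-DMb1, a peptide loading factor, by 0.87 ± 0.15. No T or NK cell gene of 17 passed with edgeR or limma-voom, 1 did with DESeq2 and 1 had an unadjusted p under 0.05, with summed levels of 75.7 to 96.1 CPM after VEA 3.12 and 65.2 to 82.7 CPM after ethanol. Of 12 B and plasma cell genes 2 were higher, Jchain and Fcer2a, and that count was 0 without ethanol animal 12 or 13 and 1 without ethanol animal 14.

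Genes of mucous metaplasia and type 2 responses gave a few large rises. Slc26a4 (chr12:31519814-31560055), pendrin, an anion exchanger of inflamed airway epithelium, was at 38.5, 24.8 and 37.3 CPM after VEA 3.12, against 1.32, 0.864 and 0.324 CPM after ethanol (5.31 ± 0.39). Clca1, a secreted product of mucous cells, varied widely, with 18.7, 42.5 and 91.7 CPM after VEA 3.12 and 2.19, 5.83 and 1.08 CPM after ethanol (4.06 ± 0.69). It did not pass when the fit held only the groups compared (edgeR adjusted p = 0.0984, within a range over alternatives of 8.39e-69 to 0.0984). These were the 2 members of 12 in the goblet cell list that passed (4 higher and 1 lower with no filter on low counts), and the mucin Muc5b did not, at 7.04, 7.95 and 6.18 CPM after VEA 3.12 and 6.59, 3.46 and 2.48 CPM after ethanol. Of 12 type 2 and eosinophil genes 3 were higher, and 5 with DESeq2. Retnla, a secreted product of alternatively activated macrophages and epithelium, was at 825, 591 and 884 CPM after VEA 3.12, against 128, 124 and 82.5 CPM after ethanol (2.78 ± 0.36). The lectin Mgl2 rose by 1.08 ± 0.17 and Ear6, an eosinophil-associated ribonuclease, by 4.53 ± 0.74. The alarmin Il33 did not pass, at 72.3 ± 9.11 CPM after VEA 3.12 and 66.3 ± 7.84 CPM after ethanol.

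Proteases and matrix genes rose in part. Mmp12 (chr9:7344397-7360461), the macrophage elastase, was at 42.6, 38.9 and 54.6 CPM after VEA 3.12, against 2.63, 0.648 and 3.56 CPM after ethanol (4.31 ± 0.47, edgeR adjusted p = 1.26e-05). It was 1 of 4 higher genes among 13 metalloproteinases and TIMPs, with Mmp8, Mmp19 and Timp1, a count that was 2 without VEA animal 56, VEA animal 59 or ethanol animal 14 and 6 with saline in place of ethanol. Of 16 collagens and matrix genes 4 were higher, Eln, Fn1, Tnc and the crosslinking enzyme Lox, and the count was 2 without VEA animal 59 or ethanol animal 14, 7 with only the groups compared and 10 with saline in place of ethanol. Elastin, Eln, was at 428, 351 and 457 CPM after VEA 3.12 and 159, 248 and 162 CPM after ethanol (1.12 ± 0.22), and fibronectin, Fn1, at 81.5, 76.4 and 80.6 CPM after VEA 3.12 and 41.0, 46.0 and 33.5 CPM after ethanol (0.98 ± 0.20). The VEA animals lay above the ethanol animals for both. The fibrillar collagens did not pass: Col1a1 was at 206, 188 and 173 CPM after VEA 3.12 and 112, 136 and 117 CPM after ethanol (edgeR adjusted p = 0.0532), and Col3a1 at 369.5, 395 and 395 CPM after VEA 3.12 and 244, 313 and 274 CPM after ethanol (edgeR adjusted p = 0.0595). None of 14 fibroblast and smooth muscle genes passed with edgeR, while 6 had an unadjusted p under 0.05, DESeq2 and limma-voom called 1 each, and edgeR called 3 as lower without ethanol animal 14 and 4 with no filter on low counts.

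Cell cycle genes rose in 7 of 18 and none fell (38.9%, median 1.34), on low counts. Ccnb1, the cyclin that drives entry into mitosis, was at 7.52, 8.28 and 7.61 CPM after VEA 3.12, against 0.768, 1.62 and 2.16 CPM after ethanol (2.35 ± 0.47). Mki67, a marker of dividing cells, was at 21.4, 25.6 and 23.1 CPM after VEA 3.12 and 8.89, 6.70 and 8.09 CPM after ethanol (1.56 ± 0.38). Summed over the list, levels were 277.8 to 324.5 CPM after VEA 3.12 and 122.2 to 142.4 CPM after ethanol, with no overlap. Top2a, which untangles replicated DNA, did not pass (edgeR adjusted p = 0.14) although its groups did not overlap. Ccnb1 did not pass with saline in place of ethanol (edgeR adjusted p = 0.119, within a range over alternatives of 5.33e-06 to 0.119). The count of 7 fell on leaving out each animal in turn. It was 1 without VEA animal 59, 2 without ethanol animal 12 or 14, 4 without VEA animal 56 or ethanol animal 13 and 5 without VEA animal 57. It was 2 with saline in place of ethanol, and 11 with no filter on low counts or with only the groups compared. Mki67 lost its call without VEA animal 57 or 59 or ethanol animal 12, 13 or 14 (edgeR adjusted p = 0.0552, 0.0524, 0.0540, 0.0993 and 0.0649, within a range over alternatives of 1.94e-08 to 0.129).

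The alveolar epithelium changed in few genes. Of 13 surfactant and type II cell genes 3 were higher and none lower, Sftpd, the mucin Muc1 (0.98 ± 0.14) and Lamp3, a lysosomal membrane protein. Lamp3 (0.53 ± 0.14) lost its call without VEA animal 56, ethanol animal 13 or ethanol animal 14 (edgeR adjusted p = 0.112, 0.0757 and 0.0715, and 0.327 against saline, the highest over the alternatives). Muc1 was at 169, 137 and 136 CPM after VEA 3.12, against 81.2, 72.6 and 70.8 CPM after ethanol. The major surfactant proteins did not move with Sftpd: Sftpc was at 17880, 14630 and 14190 CPM after VEA 3.12 and 18690, 15620 and 15220 CPM after ethanol, and Sftpa1 at 6399 ± 856 CPM after VEA 3.12 and 6257 ± 557 CPM after ethanol. Of 12 type I cell genes 1 was lower (8.33%, against 2.09% of all genes). It was Hopx, a homeodomain cofactor, with 367, 424 and 314 CPM after VEA 3.12, against 669.8, 663 and 620.4 CPM after ethanol (-0.82 ± 0.15). The type I count was 3 lower and 1 higher with only the groups compared. Ager, a defining type I marker, overlapped between groups at 2633 ± 315 CPM after VEA 3.12 and 2598 ± 206 CPM after ethanol. In the list of transitional alveolar epithelium, cells between the types seen during repair, 2 of 13 were higher, Lgals3 and Sfn, and Krt8, its best known marker, did not pass (97.2, 111 and 96.7 CPM after VEA 3.12 and 108, 88.3 and 78.3 CPM after ethanol). That count was 1 without VEA animal 59 or ethanol animal 12 or 13, and 4 without ethanol animal 14. Lgals3 is also on the list of lipid-laden macrophages. Sfn lost its call without VEA animal 56 or 59 or ethanol animal 12 or 13 (edgeR adjusted p = 0.0818, 0.121, 0.148 and 0.0925). It also did not pass with limma-voom (adjusted p = 0.0514) or with saline in place of ethanol (edgeR adjusted p = 0.124).

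Club cell genes fell in 5 of 11 and none rose (45.5%, median -0.99), against the 2.09% of all genes that were lower, and the count was 5 or 6 without any 1 animal. Beside Scgb1a1, described above, Cbr2, a carbonyl reductase, was at 5394, 3618 and 3397 CPM after VEA 3.12 and 8666, 9605 and 6442 CPM after ethanol (-0.99 ± 0.20). Cyp2f2 (chr7:27119955-27133660), the cytochrome of club cells that activates naphthalene, was at 1155, 1145 and 1002 CPM after VEA 3.12, against 2523, 3237 and 2019 CPM after ethanol (-1.24 ± 0.20, edgeR adjusted p = 0.000316). In each the highest VEA animal lay below the lowest ethanol animal. Aldh1a1, a retinal dehydrogenase, fell by 1.06 ± 0.17 on the log2 scale and Cckar, the cholecystokinin receptor, by 1.49 ± 0.26. Scgb3a2, a second secretoglobin of the airway, did not pass, at 2040, 2152 and 1617 CPM after VEA 3.12 and 2751, 2502 and 2023 CPM after ethanol (edgeR adjusted p = 0.479). Summed over the list, levels were 33750 to 39340 CPM after VEA 3.12 and 58000 to 79640 CPM after ethanol, and Scgb1a1 alone made up most of this sum in every animal.

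Ciliated cell genes fell in 7 of 17 and none rose (41.2%, median -0.99), mostly at low counts. Wdr63, a dynein intermediate chain of cilia, was at 1.33, 2.37 and 1.21 CPM after VEA 3.12, against 12.2, 10.5 and 4.96 CPM after ethanol (-2.49 ± 0.54). Cep126, a protein of the ciliary base, was at 1.81, 2.79 and 0.110 CPM after VEA 3.12 and 11.1, 7.99 and 6.15 CPM after ethanol (-2.40 ± 0.56). Both passed under each alternative run. Foxj1, the master regulator of motile cilia, did not pass, at 28.1, 28.5 and 28.2 CPM after VEA 3.12 and 40.0, 56.5 and 32.3 CPM after ethanol (edgeR adjusted p = 0.0652). The axonemal dynein Dnah5 fell by 1.19 ± 0.32 on the log2 scale, and its call was lost without ethanol animal 12 or VEA animal 57 (edgeR adjusted p = 0.214 and 0.114, within a range over alternatives of 0.00362 to 0.214). The list count was 2 without ethanol animal 12, 3 without VEA animal 59, 4 without VEA animal 56, VEA animal 57 or ethanol animal 13, and 9 without ethanol animal 14.

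Marker lists of heart, fat, blood and mesothelium, tissues that can be taken with a lung, moved in the same direction as the falls, and their part in those falls was not tested. All 11 tested heart and skeletal muscle genes had negative fold changes (median -1.07) and none passed with edgeR, while 4 had an unadjusted p under 0.05, DESeq2 called 1, limma-voom 3, and edgeR 8 with no filter on low counts and 1 without VEA animal 56. Their summed levels were 85.6 to 207.1 CPM after VEA 3.12 and 185.5 to 442.1 CPM after ethanol. The cardiac actin Actc1 was at 61.6, 30.6 and 33.9 CPM after VEA 3.12 and 68.4, 136 and 62.4 CPM after ethanol. Adipocyte genes summed to 174.6 to 437.0 CPM after VEA 3.12 and 427.4 to 848.4 CPM after ethanol, ranges that overlap. Cidec was the 1 of 8 that passed, and the count was 3 with only the groups compared and 6 with no filter on low counts. Adipoq, the defining adipocyte hormone, was at 12.1, 35.2 and 8.16 CPM after VEA 3.12 and 37.9, 31.6 and 57.9 CPM after ethanol. Erythroid genes summed to 59090 to 78170 CPM after VEA 3.12 and 88940 to 113600 CPM after ethanol. Slc4a1, the anion exchanger of red cells, was the 1 of 10 that passed (-2.48 ± 0.58). Without ethanol animal 12 the count was 3, with DESeq2 or limma-voom 4, with only the groups compared 9 and with no filter on low counts 10, and with saline in place of ethanol Slc4a1 did not pass (edgeR adjusted p = 0.1195, within a range over alternatives of 0.000409 to 0.1195). Mesothelial genes summed to 62.1 to 77.0 CPM after VEA 3.12 and 122.9 to 125.6 CPM after ethanol, with 1 of 5 lower, Upk1b, 2 with DESeq2 or limma-voom, and 0 without VEA animal 59 or ethanol animal 13. Of the squamous and basal cell markers Krt5, Krt14, Trp63, Krt13 and Krt4 had too few counts to be tested. The 1 tested member of that list, Sprr1a, a precursor of the tough envelope of squamous cells, was higher, at 4.95, 4.41 and 5.62 CPM after VEA 3.12, against 0.659, 1.30 and 0.324 CPM after ethanol (2.70 ± 0.55). It did not pass with saline in place of ethanol (edgeR adjusted p = 0.205, within a range over alternatives of 6.29e-05 to 0.205).

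Endothelial genes fell in 3 of 17, Kdr, Pecam1 and the angiopoietin receptor Tek, and none rose (17.6%, median -0.41), and the count was 6 with no filter on low counts and 8 with only the groups compared. Kdr (chr5:75932827-75979072), the main receptor for vascular endothelial growth factor, was at 153, 164 and 175 CPM after VEA 3.12, against 267, 276 and 369 CPM after ethanol (-0.89 ± 0.16, edgeR adjusted p = 0.000283). The groups were clear of each other, and Kdr passed under each alternative run. Pecam1, an adhesion molecule of vessels, was at 274, 315 and 317 CPM after VEA 3.12 and 430.2, 478 and 428 CPM after ethanol (-0.56 ± 0.14). It lost its call without VEA animal 56 or ethanol animal 13 (edgeR adjusted p = 0.0709 and 0.0619, within a range over alternatives of 0.00113 to 0.0709), and Tek without VEA animal 57 (0.0559, within a range of 0.000357 to 0.0559). Cdh5, the junction protein of endothelium, did not pass, at 155, 124 and 134 CPM after VEA 3.12 and 199, 163 and 182 CPM after ethanol (edgeR adjusted p = 0.128).

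Enzymes that metabolise foreign chemicals fell across several families. Cytochrome P450 and flavin monooxygenase genes fell in 8 of 15 and none rose (53.3%, median -1.11), with 6 or 7 lower without any 1 animal and 5 with saline in place of ethanol. Cyp4b1 (chr4:115624698-115647721), a lung cytochrome that oxidises fatty acids and furans, was at 104, 139 and 148 CPM after VEA 3.12, against 358, 343 and 290.0 CPM after ethanol (-1.34 ± 0.17, edgeR adjusted p = 3.72e-06). Fmo1 was at 74.9, 73.6 and 77.2 CPM after VEA 3.12, against 154, 103 and 138 CPM after ethanol (-0.81 ± 0.15), with VEA animals close to one another. Fmo2, the main pulmonary form, fell by 0.71 ± 0.15 on the log2 scale. Of 20 glutathione S-transferase genes, which attach glutathione to reactive compounds, 6 were lower and none higher. Gsta3 was at 102, 92.2 and 90.8 CPM after VEA 3.12, against 214, 282 and 234 CPM after ethanol (-1.36 ± 0.18), and Gstm1 at 310.4, 212 and 264 CPM after VEA 3.12 and 395, 573 and 534 CPM after ethanol (-0.94 ± 0.14). Gstp1 did not pass, at 65.6 ± 14.1 CPM after VEA 3.12 and 62.2 ± 8.90 CPM after ethanol. The transferase count was 3 without VEA animal 59 or ethanol animal 13. These genes have close relatives, and how the authors' counting divided shared reads is not given in the sources used here, so single members of the Gst and Ces families are uncertain.

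Carboxylesterases, which hydrolyse esters, fell in 4 of 9, Ces1d, Ces1e, Ces1f and Ces1g, and none rose (44.4%, median -1.29). Ces1d, a lipase as well as an esterase, was at 217, 170.0 and 189.9 CPM after VEA 3.12 and 276, 296 and 268 CPM after ethanol (-0.54 ± 0.13). Ces1f was at 2.66, 3.55 and 1.32 CPM after VEA 3.12 and 8.12, 19.2 and 12.1 CPM after ethanol (-2.38 ± 0.45), with a broad ethanol range. The count was 2 with saline in place of ethanol and 2 without VEA animal 57, where Ces1d had an edgeR adjusted p of 0.0661, and Ces1d also lost its call without ethanol animal 13 (0.0534, within a range over alternatives of 0.000651 to 0.0661). Pon1, paraoxonase, an esterase carried on lipoproteins, fell clearly, to 32.2, 50.7 and 37.2 CPM after VEA 3.12, against 108, 167 and 139 CPM after ethanol (-1.79 ± 0.31, edgeR adjusted p = 0.0017). Of 15 aldehyde and alcohol dehydrogenases 2 were lower, Aldh1a1 and Aldh1a7, and 1 without VEA animal 57, VEA animal 59 or ethanol animal 13.

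Some of these falls were not found against saline. Cyp1a1 (chr9:57687928-57703824), Cyp1b1 and Nqo1, classic targets of the aryl hydrocarbon receptor, a sensor of dioxin-like compounds, were the 3 of 6 tested members of that list that were lower after VEA 3.12. Cyp1b1 was at 2.28, 1.94 and 1.88 CPM after VEA 3.12, at 6.92, 6.37 and 6.04 CPM after ethanol and at 2.15 ± 0.933 CPM after saline (SD, n = 3), so the saline mean lay near the VEA values. With saline in place of ethanol as the reference none of the 3 passed (edgeR adjusted p = 0.390 for Cyp1a1, 0.965 for Cyp1b1 and 0.522 for Nqo1, each the highest over the alternatives, in ranges that start at 1.53e-20, 0.00171 and 0.000151). The difference of ethanol from saline did not pass for any of them either (Cyp1a1 2.67 ± 0.72, Cyp1b1 1.58 ± 0.45, Nqo1 1.44 ± 0.40, edgeR adjusted p = 0.592 for each). Cyp1b1 also lost its call without ethanol animal 12 or 13 or VEA animal 56, 57 or 59 (edgeR adjusted p = 0.0622, 0.0539, 0.0549, 0.0658 and 0.0811). Cyp1a1 did not pass with limma-voom (adjusted p = 0.0639) or with only the groups compared (edgeR adjusted p = 0.153). Ces1f and Ces1g likewise did not pass against saline (edgeR adjusted p = 0.0582 and 0.171, from ranges that start at 9.67e-06 and 2.78e-06). Tiparp, another target of the receptor, was at 43.7, 49.9 and 37.2 CPM after VEA 3.12 and 63.9, 51.2 and 65.7 CPM after ethanol and did not pass.

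Few genes of oxidant defence, lipid and vitamin E handling passed. Of 16 NRF2 targets 2 were higher, the ferritin chains Ftl1 and Fth1, which store iron, and 1 was lower, Nqo1 (18.8% of those tested, against 5.51% of all genes), and with saline in place of ethanol 4 were higher and none lower. Summed over that list, levels were 4534 to 4904 CPM after VEA 3.12 and 3052 to 3702 CPM after ethanol, with no overlap. Fth1 and Ftl1 together made up most of this sum in every animal, so the gap does not show a rise of the other members. Ftl1 was at 1122, 918 and 1063 CPM after VEA 3.12 and 585, 669 and 721 CPM after ethanol (0.65 ± 0.14), and Fth1 rose by 0.59 ± 0.14 but lost its call without ethanol animal 12 (edgeR adjusted p = 0.0552, within a range over alternatives of 0.000189 to 0.0552). Gclc, which makes glutathione, and Hmox1, which breaks down haem, overlapped between groups at 157 ± 15.5 and 6.53 ± 0.449 CPM after VEA 3.12 and 147 ± 1.07 and 5.86 ± 0.827 CPM after ethanol. Of 11 tested genes for vitamin E uptake, transfer and breakdown 1 was lower (9.09%, against 2.09% of all genes). It was Sec14l3, a lipid-transfer protein of the airway, at 1976, 1757 and 1692 CPM after VEA 3.12 and 3030, 2625 and 2544 CPM after ethanol (-0.60 ± 0.14). Its call was lost without VEA animal 59 or ethanol animal 12 (edgeR adjusted p = 0.0554 and 0.0621, within a range over alternatives of 0.000652 to 0.0621). Summed over the 11 genes, levels were 2653 to 3135 CPM after VEA 3.12 and 3685 to 4116 CPM after ethanol, with no overlap. Sec14l3 alone made up most of this sum in every animal, so the gap does not show a fall of the other members. Ttpa, the alpha-tocopherol transfer protein, averaged 1.87 ± 0.847 CPM after VEA 3.12 and 3.41 ± 1.36 CPM after ethanol and did not pass. None of 20 cholesterol synthesis and uptake genes passed with edgeR, DESeq2 or limma-voom, and 2 had an unadjusted p under 0.05. Of 21 fatty acid genes 1 was higher, the lipid droplet coat gene Plin2, and 1 was lower, Acadm, an enzyme of beta-oxidation (9.52%, against 5.51% of all genes). Plin2 lost its call on leaving out each animal in turn and with limma-voom (adjusted p = 0.0540, within a range over alternatives of 0.0080 to 0.160). Acadm lost its call without VEA animal 56, VEA animal 57, ethanol animal 12 or ethanol animal 14. The cholesterol exporters Abca1 and Abcg1 overlapped between groups, at 28.4 ± 3.90 and 67.9 ± 8.27 CPM after VEA 3.12 and 35.1 ± 7.44 and 58.2 ± 5.85 CPM after ethanol, and did not pass.

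**Figure D4:**
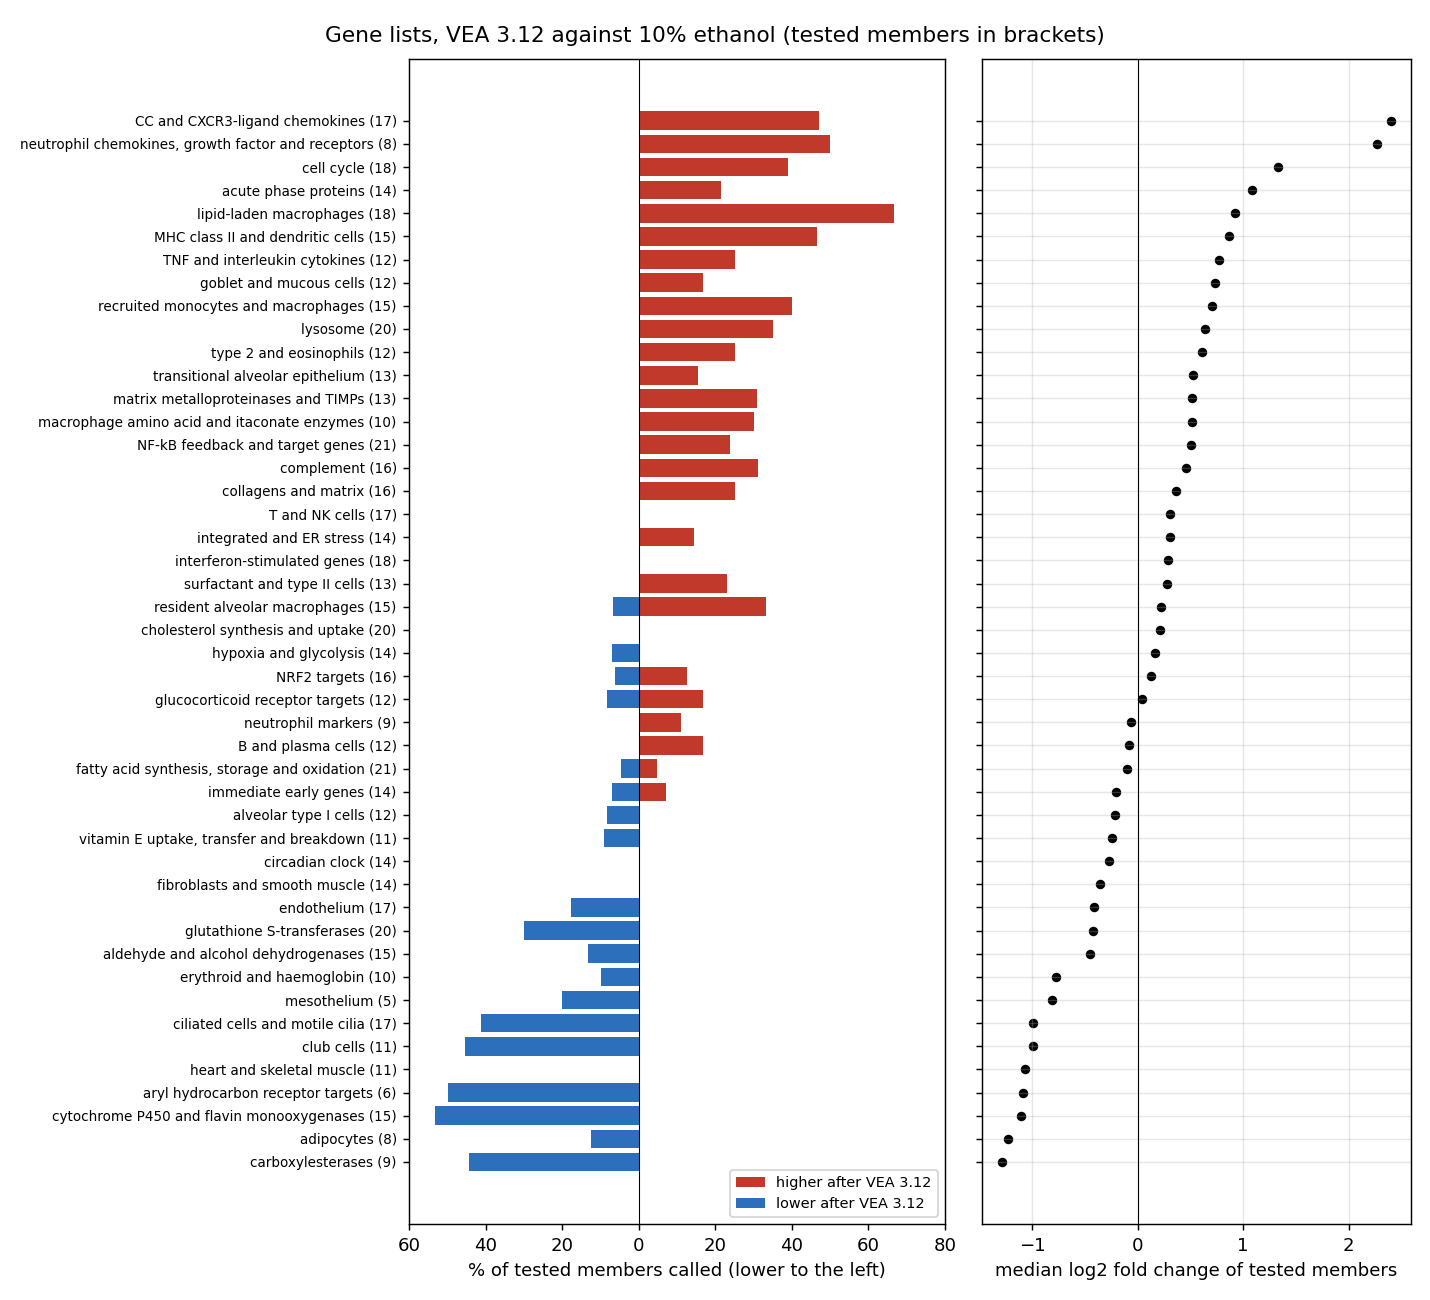
Left, share of the tested members of each gene list that passed as higher (red, to the right) or lower (blue, to the left) after VEA 3.12; right, median log2 fold change of the tested members. Lists run from chemokines, with medians above 2, to carboxylesterases, at -1.29, and lists with fewer than 5 tested members are left out.

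Hormone and stress lists gave single genes. Zbtb16, a transcription factor induced by glucocorticoids, was at 47.5, 56.8 and 33.9 CPM after VEA 3.12, against 4.50, 0.540 and 5.83 CPM after ethanol (3.66 ± 0.65, edgeR adjusted p = 0.00388). Dusp1, a phosphatase induced by the same hormones and by growth signals, went the other way, with 53.4, 78.5 and 73.7 CPM after VEA 3.12 and 119, 104 and 175 CPM after ethanol (-0.96 ± 0.18). With Fkbp5, which rose, they were the 3 of 12 glucocorticoid receptor targets that passed, and Fkbp5 lost its call without VEA animal 56 or ethanol animal 12 (edgeR adjusted p = 0.0564 and 0.0558, within a range over alternatives of 2.96e-05 to 0.0564). Atf3, a stress-induced transcription factor, was at 7.90, 13.9 and 15.2 CPM after VEA 3.12 and 5.05, 4.10 and 4.42 CPM after ethanol (1.44 ± 0.31). Of 14 stress response genes 2 were higher, Atf3 and Sdf2l1, an endoplasmic reticulum chaperone partner (0.94 ± 0.20). None of 14 circadian clock genes passed with edgeR or limma-voom, while DESeq2 called 2, 4 had an unadjusted p under 0.05, and edgeR called 1 without VEA animal 57 or ethanol animal 12. Of 14 hypoxia and glycolysis genes 1 was lower, Bnip3 (7.14%, against 2.09% of all genes), and 0 were without any 1 animal.

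Motif letters were counted over the promoters of all called genes. RefSeq promoters were available for 368 of the 504 higher and 237 of the 308 lower genes. The shares below are of promoters, 450 for higher genes, 310 for lower genes and 14047 for genes tested, so a gene with several promoters counts more than once. Letters of AP-1 (TGANTCA, both strands) were in 10.2% of promoters of higher genes and 5.16% of those of lower genes, against 4.88% of promoters of genes tested and 6.75% of all 32851 promoters of the same length. The NF-kB consensus was in 8.89% of promoters of higher genes and 7.10% of those of lower genes, against 8.93% for genes tested. The CLEAR core was in 5.78% for higher and 5.81% for lower genes, against 4.58% for genes tested. The xenobiotic response element (TNGCGTG) was in 5.11% for higher and 8.06% for lower genes, against 6.15%. The antioxidant response element (TGACNNNGC, which can share its first letters with AP-1) was in 11.3% for higher and 11% for lower genes, against 11.7%. Neither this element nor the xenobiotic one lies in the 250 bases before the start of Cyp1a1, Cyp1b1 or Nqo1. These shares were not tested, and a match is a description of the letters only.

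Higher doses of vitamin E acetate allowed a direct test of whether 3.12 differed from them. No gene passed between VEA 3.12 and VEA 6.25 (0% of 14727, edgeR, with 607 at an unadjusted p under 0.05) or between VEA 3.12 and VEA 12.5 (0%, with 801). Without a filter on low counts 7 and 60 genes passed, and against VEA 12.5 DESeq2 called 2, the fit of only these groups 24, and the fit without VEA 12.5 animal 66 called 8. Saa3 averaged 597 ± 133 CPM at 3.12, 509 ± 244 CPM at 6.25 and 1083 ± 326 CPM at 12.5 (SD, n = 3 each), and VEA 3.12 was lower than VEA 12.5 by a log2 difference of -0.86 ± 0.55, which did not pass. Cxcl1 averaged 16.5 ± 1.93, 15.7 ± 1.96 and 30.3 ± 10.9 CPM at the 3 doses, with a log2 difference of -0.88 ± 0.35 between 3.12 and 12.5. Levels of other genes were close at all doses: Ccl6 averaged 2525 ± 242, 2393 ± 300.2 and 2631 ± 317 CPM (log2 difference between 3.12 and 12.5 -0.06 ± 0.18), and Scgb1a1 27730 ± 2046, 28570 ± 2798 and 25310 ± 880.4 CPM (0.13 ± 0.15). Sftpd averaged 3004 ± 477, 2441 ± 294 and 3096 ± 276 CPM (-0.04 ± 0.15), and Kdr 164 ± 11.3, 171 ± 26.8 and 154 ± 15.8 CPM (0.09 ± 0.16). C1qa, at 74.8 ± 18.1, 91.9 ± 6.50 and 117 ± 17.2 CPM, had a log2 difference of -0.64 ± 0.16 between 3.12 and 12.5 that did not pass over all genes. The smallest unadjusted p against VEA 12.5 were those of Synm, an intermediate filament gene, at 72.8 ± 7.78 CPM at 3.12 and 42.2 ± 2.54 CPM at 12.5 (0.79 ± 0.16), and of Lmnb1, Spi1, Rraga and Trim30a, each lower at 3.12 (-0.85 ± 0.20, -0.73 ± 0.17, -0.69 ± 0.17 and -0.81 ± 0.20). Against VEA 6.25 they were those of Gjb6, Gpaa1, Apbb1ip and Tmem201, higher at 3.12, and of Magohb, lower. With 3 animals a group, a difference that did not pass does not show equal levels.

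**Figure D5:**
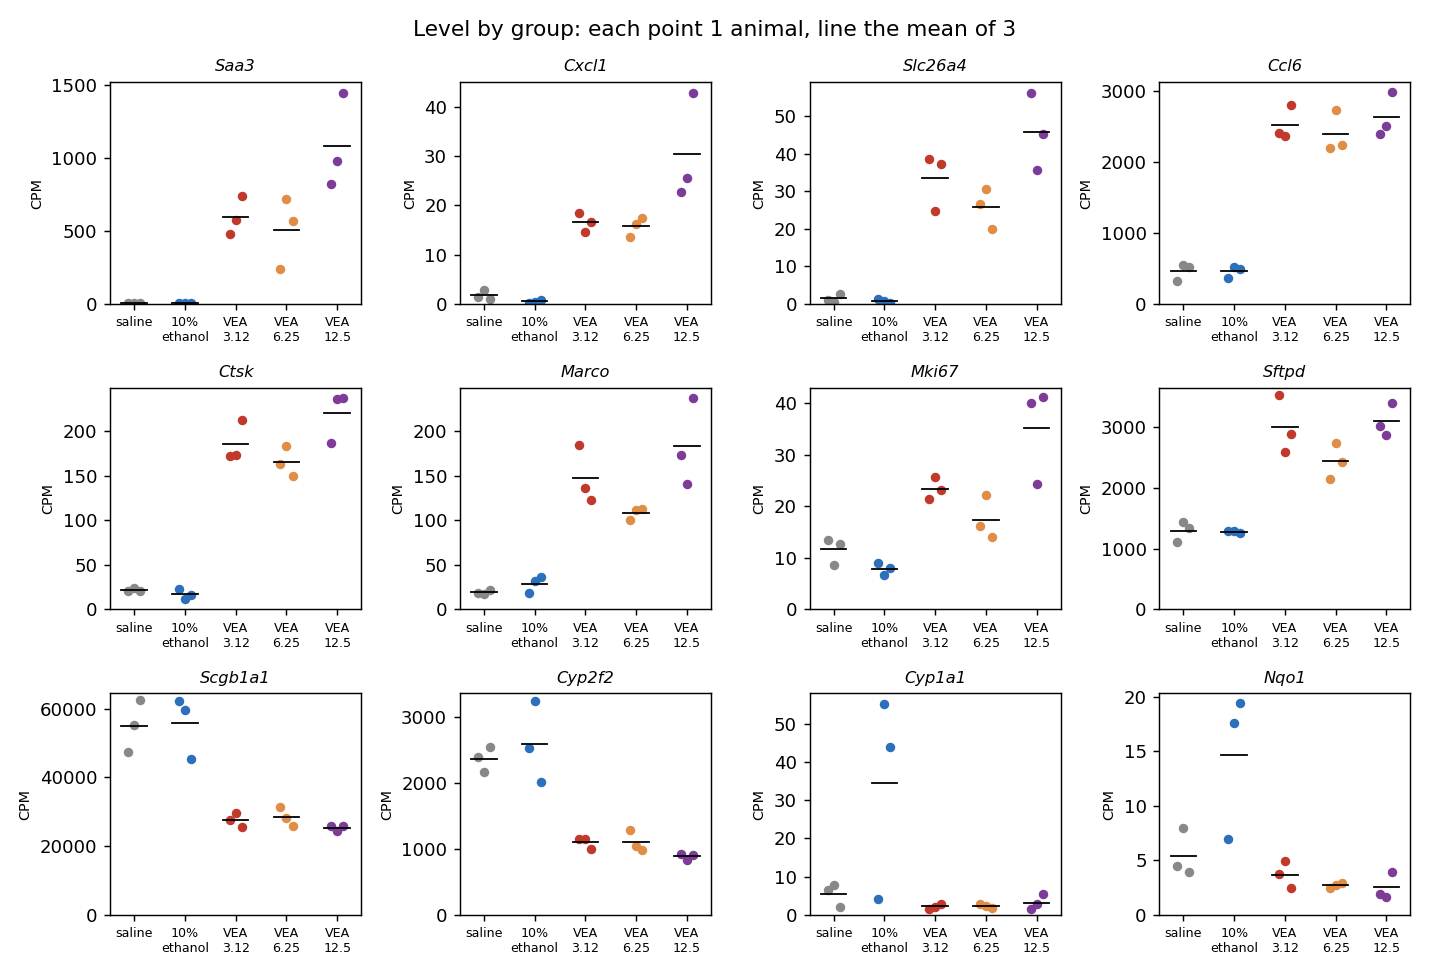
Level of 12 genes in CPM in each animal given saline, 10% ethanol or vitamin E acetate at 3.12, 6.25 or 12.5; each point is 1 animal and the line the mean of 3. Saa3 and Cxcl1 reach higher levels at 12.5, Ccl6 and Scgb1a1 lie at similar levels at all 3 doses, and Cyp1a1 and Nqo1 stand apart in ethanol animals 13 and 14.

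The 3 saline animals gave a second vehicle to set the genes against. No gene passed between ethanol and saline (edgeR, with 892 of 14727 at an unadjusted p under 0.05), while DESeq2 called 1, a fit with no filter on low counts 17, and the edgeR fit called 2 without saline animal 6 and 1 without ethanol animal 12. With saline in place of ethanol as the reference for VEA 3.12, 805 genes passed, of which 454 were among the 812. For 75 of the 504 higher genes and 29 of the 308 lower genes the saline mean lay nearer the VEA 3.12 mean than the ethanol mean on the log2 scale. Several genes described above had like levels after ethanol and saline: Saa3 was at 6.06 ± 3.08 CPM after ethanol and 5.35 ± 2.48 CPM after saline, Ctsk at 16.8 ± 5.58 CPM after ethanol and 21.8 ± 1.52 CPM after saline, Scgb1a1 at 55740 ± 9179 CPM after ethanol and 55110 ± 7581 CPM after saline, and Cyp4b1 at 330.2 ± 35.6 CPM after ethanol and 339 ± 2.37 CPM after saline. Of the 139 named genes that passed, 24 did not pass against saline, and none changed direction under any alternative.

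Of the called genes 16 had 3 counts or fewer over 1 whole group, so their fitted fold changes depend on the model's small added count. Rgs16, a regulator of G protein signals chosen here after its values were seen, had 113 counts over the VEA libraries and 0 over the ethanol libraries, at least 36.1-fold higher against a floor of 3 counts over the group. Colec11, a soluble lectin chosen in the same way, had 1 count over the VEA libraries and 86 over the ethanol libraries (ratio 0.0111, interval 0.000278 to 0.0637).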

How the data were processed

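RNA from lavaged mouse lung (Trizol, 500 ng of total RNA) was made into Lexogen QuantSeq 3′ libraries, per the labels' protocols. Per the submitters' processing notes, reads were aligned to mm10 with Bowtie2 and counted with bedtools. Versions, the annotation and whether strand was used are not given in the sources used here, so a gene and an overlapping or antisense gene cannot be told apart. The authors deposited a raw count per gene symbol for each library, 23282 entries for 23238 symbols, and the 35 symbols with several entries were summed.

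Counts of all 21 libraries, in 7 groups of 3 animals, were fitted with edgeR 4.0.16 (R 4.3.3): filterByExpr by group, TMM, quasi-likelihood test with robust dispersion, 14 residual degrees of freedom, Benjamini-Hochberg adjustment over 14727 genes, called at 0.05. All groups, those given propylene glycol included, share 1 estimate of the spread, and each library comes from 1 numbered animal. Errors after ± are SD for levels in CPM and SE for log2 fold changes (the size of the fold change over the square root of F). Fold changes are VEA 3.12 over ethanol unless another pair is named. Alternatives used DESeq2 1.42.0, limma 3.58.1 (voom), other filters, scalings and sets of libraries, and saline as reference.

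Members and gene lists were chosen with earlier results of these data known. The 15 largest log2 rises and falls with a group mean of at least 5 CPM and groups that do not overlap, the 8 largest differences in CPM each way, up to 6 called genes of each of 47 lists and 5 genes per dose comparison were named by rule, and all 143 matched RefSeq. Other members were named after their values were seen. Promoters and positions are RefSeq's, on GRCm38.p6.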

Additional observations from a re-analysis of the deposited data

How the results depend on the processing

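The count of 812 genes was 811 with DESeq2-style scaling, 1082 with DESeq2, 718 with limma-voom, 1101 with no filter on low counts, 1000 with only the groups compared, 822 without Rn45s and haemoglobin genes and 805 against saline. It was 539 without saline animal 8, ethanol animal 13 and VEA 6.25 animal 65, which had the lowest numbers of detected genes, and 434 to 621 on leaving out 1 animal of the comparison. Between VEA 3.12 and VEA 6.25 the count of 0 was 7 with no filter. Between VEA 3.12 and VEA 12.5 it was 2 with DESeq2, 60 with no filter, 24 with only the groups compared, and 0 to 8 on leaving out 1 animal. Between ethanol and saline it was 1 with DESeq2, 17 with no filter, and 0 to 2 on leaving out 1 animal. Of 139 named genes that passed, 80 passed under every alternative, 59 failed at least 1, 50 of them without 1 animal, and none changed direction. The cause of these shifts was not tested, except that leaving out animals leaves fewer samples. No paired analysis was possible because animals of the groups compared share no replicate number. At 9133120 to 10439567 counts a library, genes under 5 CPM had fewer than 53 counts each, and 16 called genes had 3 counts or fewer in a group.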

Other observations

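Gene families not covered above were looked up after their values had been seen, so their counts describe the called genes and are not tests, and they were not recomputed under the alternatives. Among C-type lectins, receptors by which myeloid cells recognise microbes and damaged cells, 7 of 23 tested were higher and 1 was lower after VEA 3.12 (3.42% and 2.09% of all genes). Clec4n, or dectin-2, was at 150.3, 134 and 153 CPM after VEA 3.12 and 32.5, 29.8 and 35.8 CPM after ethanol (2.16 ± 0.21). Clec7a, or dectin-1, was at 214, 224 and 234 CPM after VEA 3.12 and 75.1, 62.3 and 75.6 CPM after ethanol (1.66 ± 0.20). The lower lectin was Clec14a, which is made by endothelium (-0.63 ± 0.13). Of 6 subunits of the phagocyte NADPH oxidase, which makes superoxide, 4 were higher, among them Cyba by 1.07 ± 0.16, Cybb by 0.76 ± 0.15 and Ncf1 by 0.68 ± 0.16. Of 22 subunits of the vacuolar proton pump that acidifies lysosomes 7 were higher, among them Atp6v0b (0.63 ± 0.15) and Atp6v0e (0.60 ± 0.15), and of 9 genes of the actin-branching Arp2/3 complex 4 were, such as Arpc5 (0.62 ± 0.12). The 3 tested copies of Bcl2a1, an antiapoptotic gene of myeloid cells, rose by 1.64 to 1.86 (Bcl2a1a, Bcl2a1d and Bcl2a1b), and as near-identical copies they may share reads.

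Several small families held a few called genes each. The antiprotease Slpi was at 109, 104 and 132 CPM after VEA 3.12 and 38.1, 72.2 and 53.4 CPM after ethanol (1.07 ± 0.22), and its relatives Wfdc17 and Wfdc21 rose by 3.65 ± 0.52 and 2.63 ± 0.29, the 3 higher of 8 WAP domain genes tested. The inhibitory receptor gene Lilrb4a was at 70.9, 75.7 and 74.6 CPM after VEA 3.12 and 16.6, 12.5 and 7.01 CPM after ethanol (2.61 ± 0.33). Mthfd2, a mitochondrial one-carbon enzyme, was at 28.1, 22.9 and 31.5 CPM after VEA 3.12 and 7.79, 4.86 and 6.69 CPM after ethanol (2.09 ± 0.30), and the serine synthesis genes Phgdh (1.44 ± 0.34) and Psat1 (1.05 ± 0.30) were higher too. The cytosolic Mthfd1 was lower (-0.58 ± 0.16). Of the 4 genes of the NDC80 kinetochore complex 3 were higher, with Ndc80 at 4.09, 9.03 and 4.96 CPM after VEA 3.12 and 0.768, 0.216 and 1.19 CPM after ethanol (3.03 ± 0.73). Ift88 was the 1 lower gene of 14 for intraflagellar transport (-0.97 ± 0.30), and Scgb1c1 fell with Scgb1a1 among 4 secretoglobins tested, to 12.9, 11.2 and 12.5 CPM after VEA 3.12, against 34.4, 29.9 and 22.4 CPM after ethanol (-1.24 ± 0.24). The raw counts of Atf3 and of Ccl2 were the same in each VEA library, 83, 129 and 138, but were 46, 38 and 41 for Atf3 and 21, 7 and 13 for Ccl2 in the ethanol libraries.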
